A study of Homo sapiens with 3 samples.

Results

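Of 779809 nuclear sites at which polyadenylated 3′ ends were counted in HEK293T cells, 962 met a rule for ends read only in captured RNA. That RNA was captured through a metabolic label, and the sites had no count in the input RNA. These captured-only sites were chosen by their counts. The 3 libraries were summed, and the positions of a strand that lay at most 24 nt from the highest one were merged into a site. A nuclear site was a member when it had 0 counts in the input, at least 3 counts in each captured library, at least 15 over both, and under 90% of its counts at 1 position. A further 1106 nuclear sites met all of this except the bound on the share at 1 position, and they are not members. With the mitochondrial genome there were 780576 sites in all. The 0 in the input, the captured counts and the upper bound on the share at 1 position were used by the rule, and they are given as a description.

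HEK293T is an established human embryonic kidney cell line, here cultured without a genetic change named in the labels. The medium held the nucleoside analogue 4-thiouridine (4sU), at a concentration the labels give as 1000 mM, for 30 or 60 min. The unit of that concentration may be a slip in the labels. There were 3 libraries, with n = 1 in each group: captured RNA from cells labelled for 30 min, captured RNA from cells labelled for 60 min, and the uncaptured input that belongs to the 30 min cells. The input's title names the 30 min labelling, while its treatment field reads none. The 60 min library was set against that same input, and an input of its own was not analysed here. Per the labels' protocols, the captured libraries skipped an initial poly(A) selection, and its part in the results was not tested. With 1 library per group no difference has a replicate check and no test was run. All intervals below are 95% intervals for counting error only, and they treat every count as a separate molecule. Amplified copies of 1 molecule cannot be told from separate molecules. The intervals, and the calls that use them, may therefore be too narrow even for counting error.

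A cell ends most messenger RNAs by cutting the growing transcript downstream of a poly(A) signal and adding a tail of adenosines to the new 3′ end. The cut is usually not at a single base, so that one poly(A) site appears as a small group of neighbouring ends, and many genes have several such sites. 4sU enters RNA while it is made, so RNA captured through it is enriched for recently made molecules, including transcripts that are short-lived and scarce in total RNA. The assay, 2P-seq, primes on the tail with oligo(dT) and reads the last bases before it. A stretch of adenosines inside a transcript can also be primed.

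The deposited tables give each end as a chromosome, position and strand with a count, without gene names. Positions are 1-based and keep the numbering of those tables, for which the sources used here name no genome build. No genome or annotation in that numbering was used, so the sites carry no gene, exon or intron, and no bases around them are shown. The tables' strand was read as the RNA's own, so upstream and downstream would trade places if the tables name the opposite strand.

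The libraries held 14159691 counts for 30 min, 8926568 for 60 min and 35410931 for the input, of which 9652023, 6151986 and 32768468 were nuclear. Levels below are CPM, that is nuclear counts scaled to a common library size. Captured-only sites held 11633 counts at 30 min, or 0.121% of the nuclear counts (0.118 to 0.123, Wilson). At 60 min they held 16421 counts, or 0.267% (0.263 to 0.271). The 60 min library was the shallower of the captured libraries, and the members' raw counts were nevertheless higher there. The input was the deepest library. Taking 3 counts as the floor, a count of 0 there allows a level of up to 0.0916 CPM for a site not chosen for its 0.

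A captured-only site had a median of 9 counts at 30 min (quartiles 6 and 14, range 3 to 161). At 60 min the median was 12 counts (8 and 18, up to 261). Over both captured libraries the counts ran from 15 to 397 with a median of 20. Most members were thinly covered: 441 had 15 to 19 counts, 88 had at least 50 and 25 had at least 100. Had a site held the same share of nuclear counts in the input as in the pooled captured libraries, the input would have had 31.1 counts at the weakest members and 823 at the strongest, with a median of 41.5. Against the input floor, the pooled captured level was at least 10.4-fold higher at the weakest members and at least 274-fold higher at the strongest (median at least 13.8-fold). The members lay on both strands, 487 on the plus and 475 on the minus strand.

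The 60 min library held more of these ends than the 30 min library. The ratio of summed CPM, 60 over 30 min, was 2.21 (2.16 to 2.27). Of the 962 members, 747 (77.7%) had the higher CPM at 60 min and 215 the lower. The raw count was higher at 60 min in 608 (63.2%), despite the smaller library. The median log2 ratio of single sites was 1.23, with quartiles of 0.16 and 2.04 and a range from -2.41 to 4.02. A site was called when its ratio was at least 2-fold and its exact interval for a ratio of Poisson counts excluded 1. By that rule 432 captured-only sites (44.9%) were higher at 60 min, 25 (2.60%) were lower and 505 were neither. Over all 45102 nuclear sites that met the minimum counts in the captured libraries, with any input count and any spread, 8.22% were called higher and 15.7% lower, or 24% in either direction, and the median log2 ratio was -0.35. The members' share of higher calls was thus above that background and their share of lower calls below it. Depth differed, with a median of 20 captured counts at members and 51 over all these sites. No member with 15 to 19 counts, 441 in all, was called lower, so the low share of lower calls is in part set by depth. The background moved with the scaling. Median-of-ratios size factors put the median of all sites at -0.05, with 12.2% called higher and 8.41% lower, and the members at 514 higher and 10 lower. A scaling moves the log2 ratio of every site by the same amount, so the members' median lies 1.585 above that of all sites whichever is used.

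**Figure D1:**
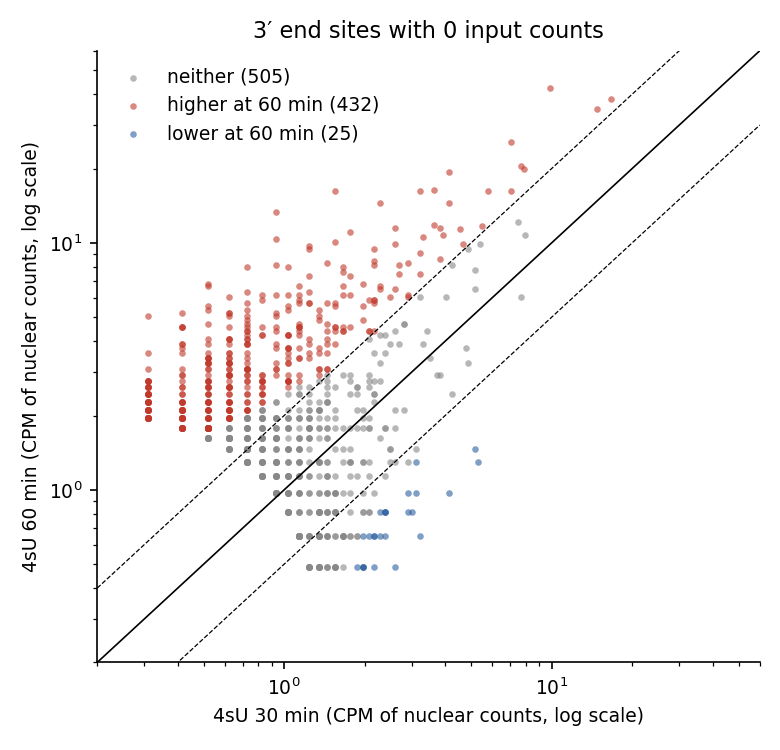
Each point is 1 of the 962 captured-only sites, with its CPM of nuclear counts after 30 min of labelling on the horizontal axis and after 60 min on the vertical axis, both on log scales. The solid line marks equal levels and the dashed lines a 2-fold difference; 432 sites (red) were called higher at 60 min, 25 (blue) lower and 505 (grey) neither.

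The plot of CPM at 30 against 60 min shows higher calls from sites of 3 counts at 30 min to the most abundant ones. At the low end these calls were set by the rule, since the minimum over both captured libraries then requires many counts at 60 min. All 52 members with 3 counts at 30 min were called higher, with a lowest log2 ratio of 2.65. With 4 counts at 30 min, even the weakest allowed pair, 4 and 11 counts, had an interval of 1.28 to 18.6. The calls at 3 and 4 counts thus say nothing about how far the difference extends. The blue points are few and none lies among the 10 most abundant sites.

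The difference from the other sites came within the first few input counts. Comparison sites met every criterion except that they had input counts. Sites with 1 input count (790 sites) had a median log2 ratio of 0.30. With 2 input counts (771 sites) it was -0.24, and with 3 (662 sites) -0.35. From 4 to 10 input counts the medians lay between -0.35 and -0.49, and over all 38861 sites with at least 4 input counts the median was -0.41. The share called higher was 44.9% at 0 input counts, 27.2% at 1, 12.2% at 2 and 8.76% at 3, and it was 3.09% at 4 or more. The share called lower was 2.60% at 0, 4.05% at 1, 10.2% at 2, 9.52% at 3 and 17.6% at 4 or more. The 2223 sites with 1 to 3 input counts had a median of -0.087 as a group.

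**Figure D2:**
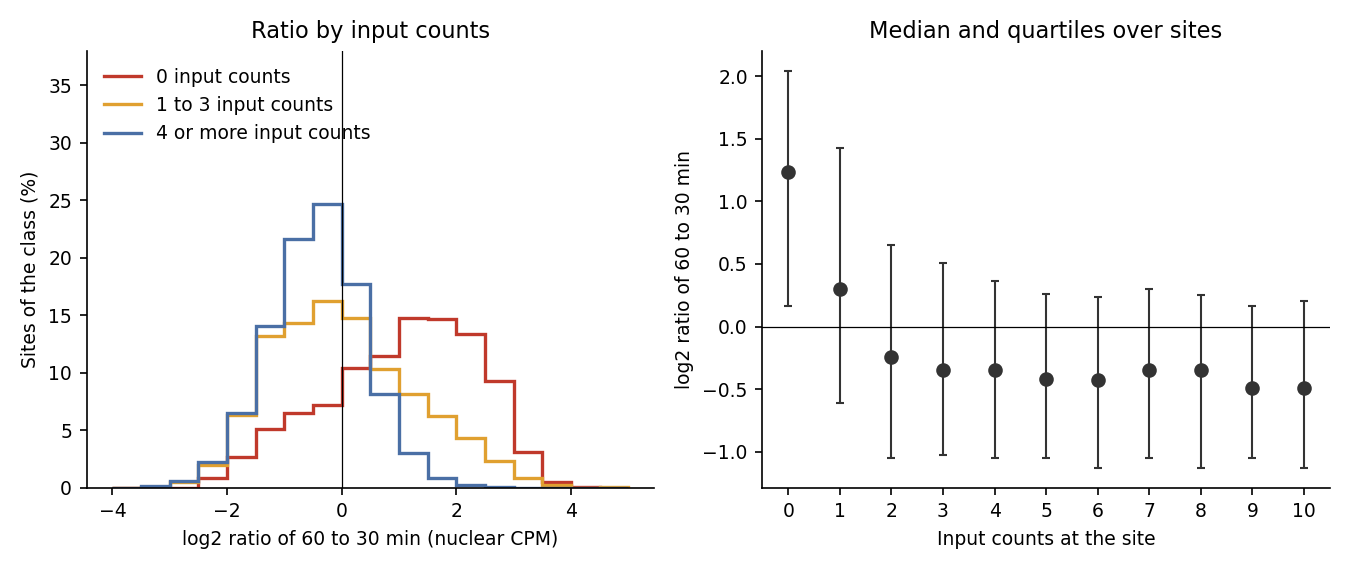
The left panel gives the distribution over sites of the log2 ratio of 60 to 30 min, as the percentage of the sites of each class, for 962 captured-only sites (red), 2223 sites with 1 to 3 input counts (orange) and 38861 sites with 4 or more (blue). The right panel gives the median (point) and quartiles (bar) of that ratio by the number of input counts; the median falls from 1.23 at 0 input counts to -0.35 at 3 and stays between -0.35 and -0.49 from 4 to 10.

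The histogram of ratios shows overlapping distributions: the lower quartile of the captured-only sites, 0.16, lay above the upper quartile of the sites with 4 or more input counts, 0.13, and the captured-only sites still reached down to -2.41.

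At 15 counts the rule itself bounds the log2 ratio between -1.35 and 2.65, and no site of 15 to 19 counts in any class was called lower. The classes were therefore also compared at like captured counts. Captured-only sites had median log2 ratios of 1.01 at 15 to 19 counts (441 sites), 1.06 at 20 to 29 (272 sites), 1.597 at 30 to 49 (161 sites) and 1.49 at 50 or more (88 sites). Sites with 4 or more input counts had -0.35, -0.45, -0.50 and -0.39 in the same ranges. Sites with 1 to 3 input counts had -0.18, -0.24, -0.23 and, at 50 or more captured counts, 1.26 (212 sites). Captured-only sites lay above the sites with 4 or more input counts in all 4 ranges, while in the deepest range the sites with 1 to 3 input counts came close to them. Among the 521 captured-only sites with at least 20 counts, 287 (55.1%) were called higher and 25 (4.80%) lower. With the same minimum, 21.8% were higher and 12.9% lower at 1 to 3 input counts, and 3.22% and 19.9% at 4 or more.

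The most abundant captured-only site was at chr20:38056690 on the minus strand, with 161 counts at 30 min, 236 at 60 min and 0 in the input, or 16.7 and 38.4 CPM. Its ratio of 60 to 30 min was 2.30 (1.87 to 2.83). The next, chr6:17094292 on the minus strand, had 143 and 215 counts and a ratio of 2.36 (1.90 to 2.94). Both lay far from other sites of some abundance. The nearest same-strand site of at least 20 counts was 466121 nt away from the one on chromosome 20 and 355585 nt away from the one on chromosome 6. On the minus strand of chromosome 11, chr11:12999512 had 95 and 261 counts and a ratio of 4.31 (3.40 to 5.51). Its counts fell on 3 adjacent positions, and the nearest same-strand site of at least 20 counts was 410032 nt away. These were also the 3 most abundant members without another such site within 10000 nt.

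Of the other 7 among the 10 most abundant sites, chr1:151808207 on the plus strand had 68 and 157 counts and a ratio of 3.62 (2.71 to 4.89). The minus-strand site chrX:18644824 had 74 and 126 counts, and chr1:58899361 on the plus strand had 76 and 123. Their ratios were 2.67 (1.99 to 3.61) and 2.54 (1.89 to 3.43). On chromosome 17, chr17:1586328 on the minus strand had 68 and 100 counts, a ratio of 2.31 (1.68 to 3.19), and chr17:41381778 on the plus strand had 40 and 119 counts, a ratio of 4.67 (3.24 to 6.86). The minus-strand site chrX:48977332 had 56 and 100 counts and a ratio of 2.80 (2.00 to 3.96). The last of the 10, chr17:31149667 on the plus strand, had 72 and 75 counts and a ratio of 1.63 (1.17 to 2.29). It was the only one of the 10 that was not called higher, and it lay in a cluster of members described below. All 10 had the higher CPM at 60 min.

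Among the 249 members with at least 30 counts, the highest ratio was at chr11:34269662 on the minus strand, with 3 counts at 30 min and 31 at 60 min, or 16.2-fold (5.06 to 82.9). It was followed by chr20:48099746, also on the minus strand, with 9 and 82 counts, or 14.3-fold (7.17 to 32.4). With so few counts at 30 min, their intervals overlapped those of many other members. The other 3 of the 5 highest had 4 or 5 counts at 30 min and ratios between 12.6 and 13.2. In 4 of these 5 sites no other site of at least 20 counts lay within 10000 nt on the same strand.

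At the low end, chr15:91267653 on the plus strand had 31 counts at 30 min and 4 at 60 min, a ratio of 0.202 (0.0519 to 0.573). On the minus strand, chr5:148916100 had 40 and 6 counts, a ratio of 0.235 (0.0815 to 0.559), and chr7:121035158 had 51 and 8, a ratio of 0.246 (0.101 to 0.522). The other 2 of the 5 lowest had 28 and 29 counts at 30 min and 5 at 60 min each. The sites at the low end were less concentrated. The highest position held 25.4% to 42.4% of their counts, against 54.3% to 70.3% at the 5 highest ratios. Their widths, 7, 25, 32, 10 and 6 nt, overlapped those of the 5 highest, which were 3, 2, 2, 7 and 10 nt. Input counts within 1000 nt were 0, 1, 8, 15 and 0 at the 5 lowest sites and 0 at all 5 highest.

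The rule admits sites down to 15 counts, and chr1:2839059 on the plus strand, with 6 and 9 counts, is an example of the weakest. Its ratio was 2.35 with an interval from 0.748 to 8.03. A pair of others with 15 counts had 10 and 5 counts (chr1:5912167, minus strand) and 4 and 11 (chr1:6613615, minus strand). Single sites of that depth give little. The 234 members with 15 or 16 counts had a median log2 ratio of 1.01, and the 245 sites just outside, with 13 or 14 counts and all else met, had 0.87. At the bound on spread, the median was 1.49 for the 172 members whose highest position held 85% to 90%, and the 261 sites with 90% to 95% had 1.77. Where all counts lay at 1 position (613 sites), it was 1.81. Left out for fewer than 3 counts in a captured library were 56 sites at 30 min and 40 at 60 min. By the same call rule all 56 were higher at 60 min and 38 of the 40 lower, so that this minimum left out more lower calls than the 25 among members. The most abundant sites just outside the input criterion, with 1 input count, had 326 and 421 counts (chr20:26189024), 137 and 316 (chr19:41902569) and 143 and 221 (chr6:138554531), all on the minus strand, and all 3 were called higher at 60 min.

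Captured-only sites were compact. Over both captured libraries, a member had a median of 4 positions with counts, a width of 7 nt (quartiles 3 and 12) and a count-weighted standard deviation (SD) of positions of 1.49 nt (0.67 and 3.17). Sites with 1 to 3 input counts had medians of 6 positions, 10 nt and 2.39 nt, and sites with 4 or more had 9 positions, 16 nt and 2.81 nt. More counts reveal more positions, and the comparison sites had more. At 15 to 19 captured counts the difference was still there, with a median of 3 positions and a width of 7 nt for captured-only sites, 5 and 10 nt at 1 to 3 input counts, and 6 and 11 nt at 4 or more. The SD in the same range was 1.59, 2.50 and 2.85 nt.

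The highest position held a median of 65.1% of a member's counts, from 10.5% up to 89.8%. It held at least 80% at 276 members (28.7%) and under 50% at 246. The corresponding medians were 50% at 1 to 3 input counts and 43.5% at 4 or more, with the input counts included. The 2 captured libraries placed the peak alike: the highest position was the same in both at 818 members (85.03%), and within 3 nt at 94.5%. At sites with 1 to 3 input counts it was the same at 75.6%, and at 4 or more at 80.3%. A tie that held a shared position counted as the same. At like concentration, members did not exceed the sites with 4 or more input counts below 70% at the highest position. The shares were 40.7% and 52.9% under 30%, 68.2% and 78.3% at 30% to 50%, and 84.3% and 95.4% at 50% to 70%. They were 98.5% and 98.6% at 70% to 80%, and 99.6% and 99.4% at 80% to 90%. Summed over members, 62.0% of the counts lay at the highest position, 20.3% upstream of it, 17.6% downstream, and 87.3% within 3 nt on either side.

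**Figure D3:**
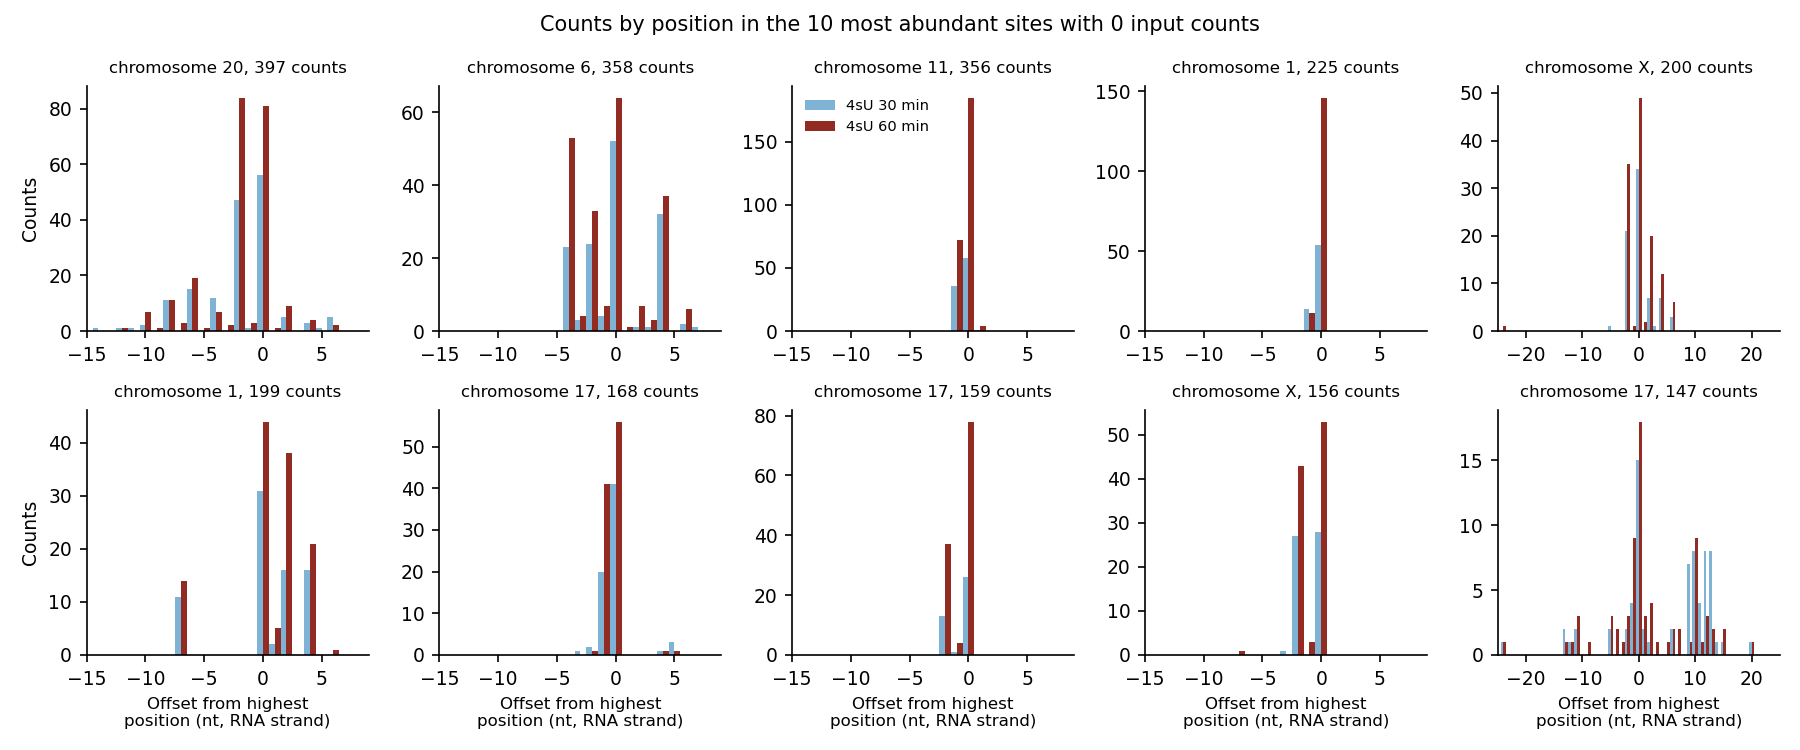
Each panel is 1 of the 10 most abundant captured-only sites, with raw counts at 30 min (blue) and 60 min (dark red) by distance in nt from the highest position of the site along the RNA, negative upstream; horizontal and vertical scales differ between panels. All 10 have 0 input counts, and in several the counts stand at every other position, as on chromosome 20 where 0 and -2 hold 137 and 131 of 397 counts.

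In the profiles of the 10 most abundant sites, the ends at several sites stood at every other base. At chr20:38056690 the highest position held 56 counts at 30 min and 81 at 60 min, and the position 2 nt upstream held 47 and 84. The position between them held 1 and 3. Further upstream, the positions at 4, 6 and 8 nt held 12 and 7, 15 and 19, and 11 and 11 counts, while those at 3, 5 and 7 nt held at most 3 in a library. At chr6:17094292 the even distances of 4 and 2 nt upstream and 4 nt downstream held 23 and 53, 24 and 33, and 32 and 37 counts. There the position 1 nt upstream held 4 and 7. In total, 94.6% of the counts away from the highest position stood at an even distance from it at the chromosome 20 site, and 90.1% at the chromosome 6 site. The same share was 95.7% at chrX:18644824, 93.3% at chrX:48977332 and 90.9% at chr17:41381778. The last of these spanned 3 nt, so its share came from 1 position alone, 2 nt upstream.

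This pattern was looked for in all members after it had been seen at the most abundant ones. Of the 381 captured-only sites with at least 10 counts away from the highest position, 54 (14.2%, 11.03 to 18.03, Wilson) had at least 80% of them at even distances. Among sites with 1 to 3 input counts it was 61 of 1380 (4.42%, 3.46 to 5.64), and with 4 or more 268 of 35283 (0.760%, 0.674 to 0.856). The median even share was alike in the 3 classes, 37.5%, 36.4% and 35.3%, so that the difference was in a minority of sites. With 15 to 49 captured counts only, the proportions were 12.04%, 3.84% and 1.34%. The number of positions per site, a median of 4 in members against 6 and 9, was not matched. Its part in the difference was not tested. The pattern recurred between the captured libraries, with distances counted from the highest position of the summed counts. Of 179 members with at least 5 counts away from the highest position in each library, 35 passed 80% at 30 min, and 27 of those 35 passed it at 60 min, where their median even share was 90.1% against 28.6% at the rest. At sites with 1 to 3 input counts, 24 of 43 that passed at 30 min passed at 60 min, with a median even share of 80%. At sites with 4 or more input counts, 92 of 303 that passed at 30 min passed at 60 min.

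The 54 members with ends at even distances had a median log2 ratio of 1.43, against 0.89 at the other members with at least 10 counts away from the highest position. The difference did not hold at depth: at 50 or more captured counts the medians were 1.4274 (18 sites) and 1.5004. Of the 54, 37 were called higher at 60 min and 0 lower. Among all members 44.9% were higher and 2.60% lower, and over all 45102 nuclear sites with the minimum captured counts 8.22% and 15.7%. Calls at the other members with at least 10 counts away from the highest position are not given here. Of the sites with ends at even distances in the other classes, 17 of 61 were called higher and 2 lower at 1 to 3 input counts, and 15 of 268 higher and 33 lower at 4 or more. They had no other same-strand site of at least 20 counts within 10000 nt in 33 cases (61.1%), against 34.3% of the others. Their median width was 11 nt. What bases stood at these positions was not tested, since no genome in the tables' numbering was used.

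The ratio of 60 to 30 min differed with the spread of positions. Captured-only sites with under 30% of their counts at the highest position (54 sites) had a median log2 ratio of 0.14, and those with 30% to 50% (192 sites) had 0.46. At 50% to 70% (306 sites) the median was 1.41, at 70% to 80% (134 sites) 1.42 and at 80% to 90% (276 sites) 1.47. Sites with 1 to 3 input counts ran from -0.49 and -0.47 to 0.065, 0.46 and 1.23 over the same ranges. Sites with 4 or more input counts stayed between -0.49 and -0.28. The most concentrated sites with 1 to 3 input counts thus came near the captured-only sites, and the concentrated sites with 4 or more did not. By width, captured-only sites of 2 or 3 nt (245 sites) had a median of 1.52, those of 4 to 6 nt 1.405, those of 7 to 12 nt 1.21, those of 13 to 24 nt 0.52 and those of 25 nt or more (63 sites) 0.71. Sites with 0 input counts and at least 90% of the counts at 1 position, which the rule leaves out, had a median of 1.82 over 1106 sites, with 762 called higher and 0 lower. Of the 25 lower calls among members, 14 had under 50% of their counts at the highest position.

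**Figure D4:**
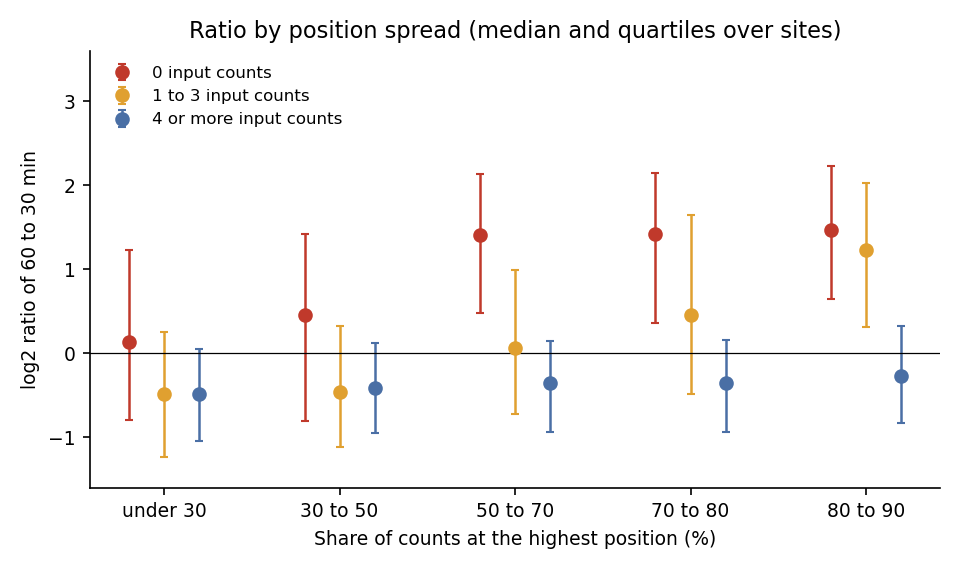
The median (point) and quartiles (bar) over sites of the log2 ratio of 60 to 30 min are plotted against the share of the site's counts at its highest position, in percent, for captured-only sites (red), sites with 1 to 3 input counts (orange) and sites with 4 or more (blue). The captured-only medians run from 0.14 in the widest sites to 1.47 in the most concentrated ones, and those of the sites with 4 or more input counts stay between -0.49 and -0.28.

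In the plot of ratio against concentration, the red and blue quartile bars overlap below 50% and are apart from 50% upward. The captured-only medians lie above those of both other classes in all 5 ranges.

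Most captured-only sites did not lie beside a strong poly(A) site. Strong sites were the 16830 nuclear sites of at least 200 counts over the 3 libraries. On the same strand, the median distance to the nearest was 23014 nt for captured-only sites, 21222 nt for sites with 1 to 3 input counts and 6828 nt for sites with 4 or more. A strong site lay within 1000 nt of 86 members (8.94%, 7.30 to 10.9, Wilson) and within 10000 nt of 344 (35.8%, 32.8 to 38.8). The shares within 10000 nt were 35.1% at 1 to 3 input counts and 53.9% at 4 or more. Only 7 members lay within 50 nt of a strong site, and in all 7 the strong site was downstream. Beyond 100000 nt from any strong site on their strand lay 236 members (24.5%).

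The nearest strong site lay more often downstream than upstream. It was downstream for 603 members (62.7%), against 56.5% at 1 to 3 input counts and 50.8% at 4 or more. The median distance was 131233 nt upstream and 41006 nt downstream. For sites with 4 or more input counts these were 57560 and 53275 nt. Within 10000 nt, 252 members had a strong site downstream and 143 upstream. On the opposite strand the nearest strong site was at a median of 72463 nt, and 130 members (13.5%, 11.5 to 15.8) had one within 10000 nt. That share was 15.3% at 1 to 3 input counts and 21.5% at 4 or more. On the opposite strand the strong site lay downstream and upstream about equally, with the downstream one nearer at 494 members (51.4%). At 30 members (3.12%) there were counts on the opposite strand within 24 nt.

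**Figure D5:**
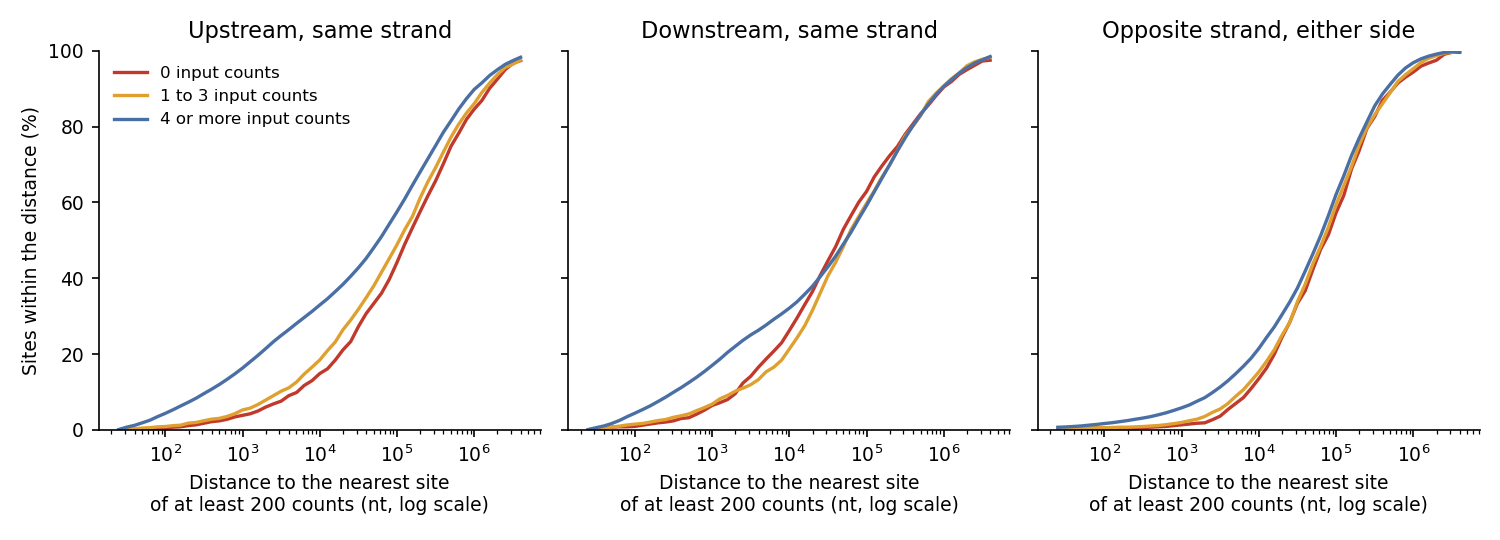
Cumulative percentage of sites with a strong site (at least 200 counts over the 3 libraries) within the distance on the horizontal axis (nt, log scale): upstream on the same strand, downstream on the same strand, and on either side on the opposite strand. Captured-only sites (red) stay below sites with 4 or more input counts (blue) upstream, reaching 14.9% against 32.9% at 10000 nt, and meet them downstream at larger distances, with 26.2% against 32.1% at 10000 nt.

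The cumulative curves show the same asymmetry: the red and blue curves cross on the downstream side between 10000 and 100000 nt, where captured-only sites reach 62.9% and sites with 4 or more input counts 59.1%, and upstream they do not cross up to 100000 nt (44.2% and 57.5%).

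The surroundings of captured-only sites were sparse. The rule can itself favour this, since a member has 0 input counts at all its merged positions. Positions within 24 nt of a stronger one also go to that site. The part of the rule in these shares, and in the distances to strong sites above, was not tested. The nearest position with an input count on the same strand lay at a median of 1517 nt, within 1000 nt of 403 members (41.9%) and within 100 nt of 118 (12.3%). No other site of at least 20 counts lay within 10000 nt on the same strand for 432 members (44.9%), and these had a median log2 ratio of 1.42, against 1.01 for the other 530. The share without such a neighbour was 38.9% at 1 to 3 input counts and 18.9% at 4 or more. It was 59.6% at the sites with 0 input counts that the bound on spread left out. At 298 members (31.0%) no library had any other count within 1000 nt on the strand, and their median was 1.47. That share was 25.6% at 1 to 3 input counts, 9.06% at 4 or more and 48.0% at the sites left out by the bound on spread. Ratios were lower close to strong ends. The 122 members with more than 20 input counts within 1000 nt had a median of 0.52, and so did the 86 members with a strong site within 1000 nt. Farther out the medians did not follow distance, with 1.32 between 1000 and 10000 nt from a strong site (258 members), 1.09 between 10000 and 100000 nt (382 members) and 1.42 beyond 100000 nt (236 members).

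The ends around the captured-only sites had a lower ratio than the sites themselves. Summed over members, the counts within 1000 nt on the same strand and outside the site had a ratio of 60 to 30 min of 0.915, where the sites themselves had 2.21. The median flank held 1 count in each captured library, so the summed flank ratio rests on a minority of members. For 235 members these flanks had at least 15 captured counts, with at least 3 in each captured library. Their flanks had a median log2 ratio of 0.022 and their sites 0.52, and the site was above its own flank at 143 of 235 (60.9%). At sites with 4 or more input counts the medians were -0.48 for flanks and -0.49 for sites, and the site was above its flank at 48.3%. The flanks of members thus also had a higher median ratio than the flanks of those sites.

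Captured-only sites seldom lay next to each other. With same-strand members at most 2000 nt apart joined, 50 members (5.198%) formed 20 clusters, 16 of which were pairs. Sites with 1 to 3 input counts, joined in the same way among themselves, clustered at 182 of 2223 (8.19%). That class holds more sites, which by itself leaves less distance between them, so the shares are not directly comparable. The clustered members were broader, with a median width of 11.5 nt against 7 nt for the 912 single ones. Their median log2 ratio was 0.75, against 1.23 for single members. Of the 50, 16 (32%) were called higher and 0 lower, against 45.6% and 2.74% of the single members. Over all 45102 nuclear sites with the minimum captured counts these shares were 8.22% and 15.7%. The nearest other member on the strand lay at a median of 1103440 nt.

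The largest cluster held 9 members on the plus strand of chromosome 21 between 9825472 and 9827918. Together they had 139 counts at 30 min and 134 at 60 min, a ratio of 1.51 (1.18 to 1.93). The 9 sites were wide, with a median of 30 nt and a median of 22.2% of the counts at the highest position. The most abundant of them, at 9826086, had 50 and 40 counts over 48 nt. The members were a small part of the ends in that span, which held 2223 counts at 30 min, 1680 at 60 min and 451 in the input. Their 0 in the input thus stood among other positions with input counts. The 9 members share 1 region and are not 9 separate observations.

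A cluster of 3 on the plus strand of chromosome 17, between 31149453 and 31149888, had 101 and 139 member counts and a ratio of 2.16 (1.66 to 2.82). Its whole span held 331, 406 and 6 counts at 30 min, 60 min and in the input, so that it was nearly free of input counts throughout. The member at 31149885 had 4 and 24 counts, while the one at 31149667 had 72 and 75. On the plus strand of chromosome 16, 3 members between 33963687 and 33965237 had 57 and 24 counts, a ratio of 0.661 (0.392 to 1.08). The span around them had 450, 480 and 43 counts. On the minus strand of chromosome 21, between 9880754 and 9881811, 3 members had 26 and 42 counts, a ratio of 2.53 (1.52 to 4.31), and the span had 0 input counts. The pair with the most counts lay on the plus strand of chromosome 11 between 750465 and 750536, with 40 and 87 counts, a ratio of 3.41 (2.32 to 5.09), and 0 input counts in the span. Within the clusters, ratios thus lay on both sides of 1.

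Captured-only sites made up 2.29% of the 42046 sites that met the captured-library criteria and the bound on spread. Among chromosomes with members the share ran from 1.55% on chromosome 8 (22 of 1417) and 1.57% on chromosome 2 (45 of 2865) to 3.85% on chromosome 21 (22 of 571, 2.56 to 5.76, Wilson). Without its largest cluster chromosome 21 had 2.31%, close to the share over all chromosomes. The next were chromosomes 22 (2.92%), 18 (2.92%) and 17 (2.85%). The median log2 ratio was above 0 on every chromosome with members, from 0.71 on chromosome 5 to 1.71 on chromosome 9.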

How the data were processed

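The deposited values are raw counts of 3′ ends at single positions, 1 table per library, without normalization by the authors. The tools were cutadapt and Bowtie, per the submitters' processing notes. The sources used here name neither a tool version nor a genome build, and do not say how multiply mapping reads were counted. Per the labels' protocols, RNA was poly(A) selected, cut lightly with RNase T1, selected again and copied into cDNA from an anchored oligo(dT) primer, and the captured libraries skipped the initial selection.

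Sites, CPM of nuclear counts, exact ratio intervals (Clopper-Pearson on the share) and Wilson intervals were computed with Python 3.11.15, numpy 2.4.6, pandas 2.3.3 and scipy 1.17.1. edgeR 4.0.16 gave only TMM scaling factors, from the 10843 sites whose mean CPM reached 10. The code for the ratio intervals and calls was run on simulated Poisson counts. Those counts hold no amplified copies and no variation between libraries, so the run checks the calculation only. The named sites are the 10 with the most captured counts, the 5 highest and 5 lowest ratios among those with at least 30 counts, the 5 largest clusters, the 3 most abundant isolated sites, the 3 weakest members and the 3 most abundant sites with 1 input count. Clusters join same-strand members at most 2000 nt apart. The members and rules were chosen with earlier results of these data known. Alternatives covered the merge distance, each criterion, the scaling, the strong-site definition and the clustering distance.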

Additional observations from a re-analysis of the deposited data

Results flagged for a closer look

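Outside the nuclear sites described, 2 of 767 mitochondrial sites met the same count rule with 0 input counts. Both lay on the minus strand of the mitochondrial genome: position 836 had 12 counts at 30 min and 3 at 60 min, with 13.3% at the highest position, and position 1429 had 13 and 11 counts, with 16.7%. They are noted because mitochondrial ends enter no comparison of the report.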

How the results depend on the processing

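Under every setting run, the median log2 ratio of 60 to 30 min over captured-only sites stayed above 0. In the order number of sites, median log2 ratio, higher calls and lower calls, the alternatives gave the following. Allowing 1 input count gave 1752 sites, 0.82 and 57 lower calls; allowing 3 gave 3185, 0.27, 799 and 199. At least 10 captured counts gave 1751 sites and 0.91; at least 20, a setting chosen after seeing the data, gave 521, 1.36 and 287 higher; at least 30 gave 249, 1.52, 171 and 9. Without a limit at 1 position there were 2068 sites, 1.65 and 1194 higher; under 50% at 1 position left 246, 0.33, 63 and 14. Requiring 0 input counts within 1000 nt left 559 sites, 1.415, 282 and 10; within 100 nt, 15 were lower. At least 5 counts in each captured library left 12 lower calls and at least 1 gave 52. Median-of-ratios scaling gave a median of 1.535 and 10 lower calls, with 514 higher, and TMM 1.49 and 11, with 510; over all sites they gave 12.2% higher and 8.41% lower, and 11.5% and 9.18%. The median SD of positions was 1.12 nt at 30 min alone, 1.198 nt at 60 min alone, 1.265 nt at a merge distance of 10 nt and 1.94 nt at 50 nt. A strong site within 10000 nt was found on the same strand for 46.6% with at least 50 counts, 21.9% with 1000 and 28.5% with 200 in the input, and on the opposite strand for 20.2%, 7.90% and 10.9%; within 1000 nt these were 8.94% and 1.35%, and within 100000 nt 75.5% and 57.3%. Clusters held 3.33% of members at 500 nt, 9.15% at 10000 nt and 13.6% at 50000 nt. Other causes of these shifts than the settings themselves were not tested. No paired analysis was possible because each group has 1 library and the labels carry no replicate numbers, and no replicate could be left out. Counts of 15 to 19 cannot give a lower call, which limits 441 of 962 members.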
